A study of Mus musculus with 12 samples.

Results

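The hypoxia response of gene expression was compared between control and ISG20-knockdown cells of EMT6, a mouse breast cancer cell line, by RNA sequencing. Control cells (shNTC) and cells with ISG20 knocked down (shISG20) were each kept at 20% O2 or at 1% O2. They are called the 2 subclones here, and 48 hours was the labelled time. Each of the 4 groups held 3 libraries, 12 in all. The question was which genes answered 1% O2 differently in the knockdown cells. For each gene the hypoxia response was the log2 difference between 1% and 20% O2 within a subclone, and the response difference was the response in shISG20 cells minus that in shNTC cells. Both were taken on log2(TPM + 1), where TPM is a length-scaled share of the reads of a library. A row was tested where 3 or more of the 12 libraries reached 1 TPM, which held for 14389 of 60683. In 997 of them (6.93%) the response differed at an adjusted p under 0.05, in limma's test of the interaction over all 12 libraries. The shNTC cells are labelled wild type. The labels do not say how many subclones were made per arm. The knockdown and any other difference between the shNTC and shISG20 cells cannot be told apart. The labels call the libraries biological replicates but do not say that each was its own culture, so the p-values reflect the spread between these libraries alone, which may be technical. One library, shISG20 at 20% O2 replicate 3, is labelled 484 hours.

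Rises under hypoxia were smaller in shISG20 cells for 7 of 31 tested targets of hypoxia-inducible factor outside glycolysis, HMOX1, NDRG1 and ERO1A among them, and 2 others had enlarged rises. Collagen and other interstitial matrix genes had 12 of 22 members called, all with a response that was higher in shISG20 cells, such as COL1A1, COL3A1 and SPARC. Genes of the integrated stress response had 13 of 34 members called, all as enlarged falls, ATF4 and PPP1R15A included. A smaller set changed in opposite directions, PMM1 and NFKBIA among them, and the response differences of both passed the test in each of the 24 alternatives.

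ISG20 is a 3' to 5' exonuclease that degrades single-stranded RNA and is induced by interferon. Cells short of oxygen stop the prolyl hydroxylases that mark hypoxia-inducible factor (HIF) alpha subunits for destruction, and HIF then binds DNA with its partner ARNT and switches on genes of glycolysis, pH control, oxygen delivery and matrix modification. Prolonged hypoxia also acts through slower programmes: the unfolded protein response of the endoplasmic reticulum (ER), the integrated stress response with its transcription factor ATF4, NRF2 and its antioxidant targets, and the shutdown of ribosome production and DNA replication.

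The deposited table lists human Ensembl genes of GRCh38, although the cells are mouse, so only reads close enough to a human gene could be counted. Levels of different genes are therefore not compared, genes that diverged between the species have few or no reads, and those with close copies share reads. Of the 14389 rows, 8579 carried the name of a mouse gene, and those rows held 796 of the 997 calls (9.28% of such rows). The counts of the gene lists below stand beside that share as well as the 6.93% of all rows. The libraries held 3173991 to 5201799 recovered reads. Among markers of the line, KRT8, KRT18 and KRT19 (epithelial keratins) and VIM (the mesenchymal filament vimentin) were present. The epithelial marker CDH1 (E-cadherin) and the mesenchymal marker CDH2 (N-cadherin) both had 0 reads. The summed level of 7 epithelial markers was 42.9 to 54.7 TPM in shNTC cells at 20% O2, 199 to 217 at 1% O2, and 47.8 to 57.8 and 233 to 239.5 in shISG20 cells. Of 10 leucocyte markers listed in the table, 8 had 0 reads in every library, PTPRC among them, and the sum did not pass 3.23 TPM. Of 5 endothelial markers 3 had 0 reads, with a sum of at most 0.161 TPM. In bulk RNA, fewer cells of a kind and less RNA per cell cannot be told apart.

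ISG20 itself was checked first. It stood at 2.03, 2.65 and 2.70 TPM in shNTC cells at 20% O2 and at 8.81, 8.44 and 7.59 TPM at 1% O2, against 0.215, 0.135 and 0.323 TPM at 20% O2 and 0.413, 0.595 and 0.690 TPM at 1% O2 in shISG20 cells. These levels rested on 75, 334, 7 and 19 reads per group of 3 libraries. The knockdown libraries lay below every control library at each oxygen level. Its response difference was -1.07 ± 0.23 (adjusted p = 0.0192). The call was lost with a pseudocount of 0.1, with a filter of 5 TPM, with voom on the recovered reads, and without shNTC 1% O2 replicate 1 or replicate 2. HIF1A, the HIF-1 alpha subunit, and ARNT did not pass the test, with response differences of -0.11 (adjusted p = 0.542) and 0.08 (adjusted p = 0.712). EPAS1, the HIF-2 alpha subunit, did not pass the filter on low values.

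Hypoxia itself moved much of the transcriptome in both subclones, 7326 rows (50.9%) in shNTC cells and 8173 rows (56.8%) in shISG20 cells. As shares of the rows tested, 1847 (12.8%) and 2021 (14%) were rises and 5479 (38.1%) and 6152 (42.8%) falls, and 6137 rows were called in the same direction in both. Of those 6137, 607 also had a different size of response. The calls for the response difference were sorted by what the knockdown cells did relative to the controls. In 256 rows (1.78% of those tested) the response was blunted, meaning smaller in shISG20 cells: 98 of these (0.681%) were rises and 158 (1.1%) falls. In 671 rows (4.66%) it was enlarged, 184 (1.28%) as rises and 487 (3.38%) as falls, so enlarged falls made up 48.9% of all calls. In 70 rows (0.486%) it was reversed, which means that both responses were called and had opposite signs, 35 from rise to fall (0.243%) and 35 from fall to rise (0.243%). The median responses were 1.07 in shNTC and 0.28 in shISG20 cells for blunted rises, and -0.82 and -0.22 for blunted falls. For enlarged rises they were 0.29 and 1.01, and for enlarged falls -0.60 and -1.31. Rises and falls are signed by the larger response, so some members of a class moved the other way in the weaker arm: 28 of the 98 blunted rises, 52 of the 158 blunted falls, 49 of the 184 enlarged rises and 49 of the 487 enlarged falls had responses of opposite sign.

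**Figure D1:**
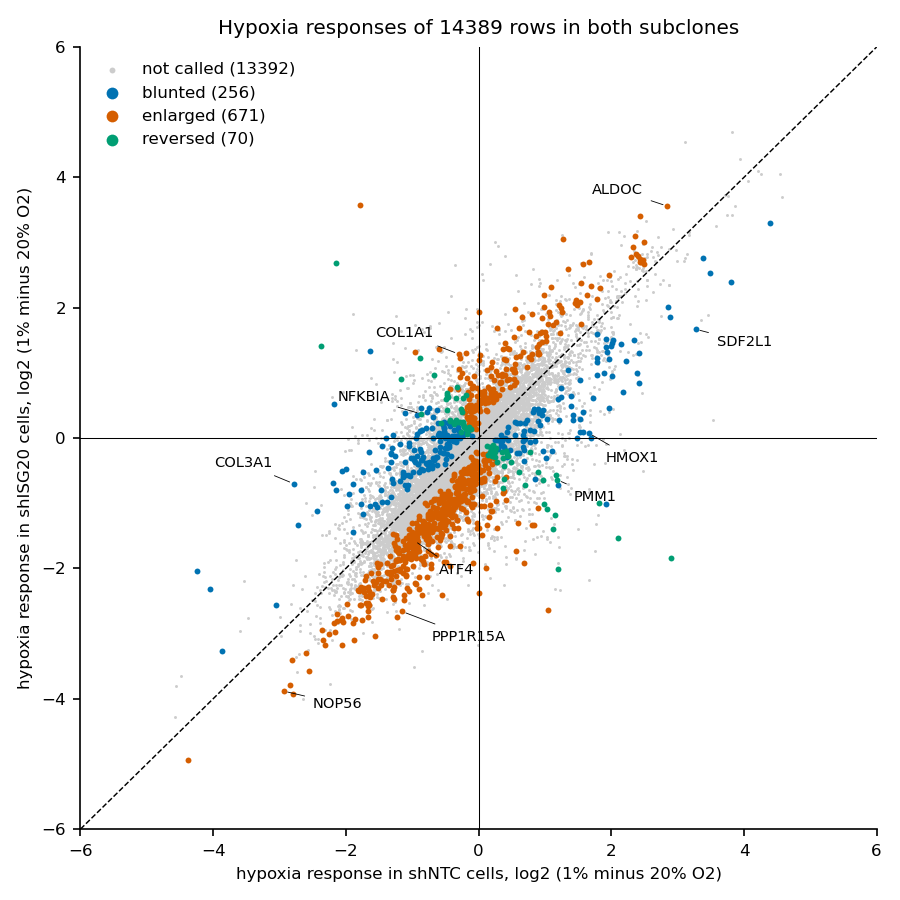
Hypoxia response in shNTC cells (horizontal axis) against that in shISG20 cells (vertical axis), both log2(TPM + 1) at 1% minus 20% O2 over 3 libraries per group, for all 14389 rows tested. Points on the dashed diagonal responded equally; 671 enlarged rows (orange) have the larger response in shISG20 cells, 256 blunted rows (blue) the smaller one, and 70 reversed rows (green) lie in the quadrants of opposite sign.

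The split between classes depended on how the libraries were scaled. On TPM as deposited the median of all tested rows fell by 0.28 with hypoxia in shNTC cells and by 0.35 in shISG20 cells, and the median response difference was -0.09. Of the 997 calls, 377 (2.62% of rows) were higher and 620 (4.31%) lower in shISG20 cells, so 37.8% were higher. Median-of-ratios size factors, which set both median responses to 0.00, gave 1046 calls of which 56.4% were higher, with 415 enlarged rises and 316 enlarged falls. Quantile normalization gave 956 calls of which 49.5% were higher. With median-of-ratios size factors 157 of the 256 blunted rows and 500 of the 671 enlarged rows were called with the same pattern, against 11 of the 70 reversed rows, and with quantile normalization 22 of the 70 were. Across all 24 alternative settings, 408 of the 997 rows (40.9%) were called each time, and 1 row changed the sign of its response difference in any of them. Leaving out 1 library at a time gave 595 to 1043 calls. The count moved by more than 1.5 times without shISG20 20% O2 replicate 2 (595) or replicate 3, the library labelled 484 hours (632), without shNTC 1% O2 replicate 2 (635) and without shNTC 20% O2 replicate 1 (655). Of the 632 calls without the library labelled 484 hours, 592 were among the 997, with 64 blunted rises, 115 blunted falls, 131 enlarged rises, 275 enlarged falls, 22 reversals from rise and 25 from fall. Among rows with a mouse gene name, ELOB was the last inside the threshold (-0.22, adjusted p = 0.0496) and KMT2C the first outside (-0.62, adjusted p = 0.0501).

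The oxygen level at which the subclones differed was also read from the same model, on TPM as deposited alone. Median-of-ratios size factors were 1.15 to 1.17 in both subclones at 20% O2. At 1% O2 they were 0.915, 0.927 and 0.8925 in shNTC cells and 0.847, 0.893 and 0.855 in shISG20 cells. With those factors enlarged falls numbered 316, and how the split by oxygen level depends on scaling was not tested. For 283 of the 487 enlarged falls, shISG20 and shNTC cells differed at 1% O2 alone, at an adjusted p under 0.05. Another 96 differed at 20% O2 alone and 53 at both levels in opposite directions. Enlarged rises had more rows that differed at 20% O2 alone, 92 of 184, than at 1% O2 alone, 48. For blunted falls these counts were 79 and 56 of 158, and for blunted rises 39 and 28 of 98. Over all rows tested, 1670 (11.6%) differed at 20% O2, 727 (5.05%) higher and 943 (6.55%) lower in shISG20 cells. At 1% O2 2001 (13.9%) differed, 611 (4.25%) higher and 1390 (9.66%) lower.

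**Figure D2:**
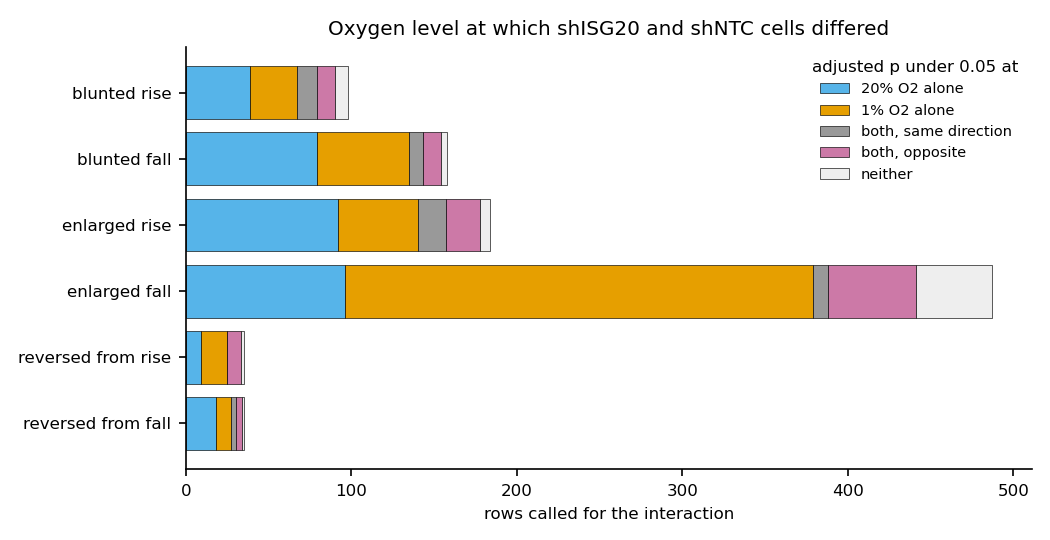
Number of called rows in each of the 6 classes (horizontal axis), divided by the oxygen level at which shISG20 and shNTC cells differed at an adjusted p under 0.05. All counts are on TPM as deposited. Enlarged falls were mostly apart at 1% O2 alone (283 of 487, orange), and enlarged rises most often at 20% O2 alone (92 of 184, light blue).

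Below, values by library run from 20% to 1% O2, in the order of replicates 1 to 3. Among the genes whose rise was blunted, HMOX1, heme oxygenase 1, had the smallest p. It went from 19.9, 23.0 and 20.7 to 73.1, 70.8 and 63.8 TPM in shNTC cells, and from 29.9, 29.9 and 35.6 to 35.3, 34.2 and 31.0 TPM in shISG20 cells. The control groups were far apart, while the knockdown groups overlapped. HMOX1 rose by 1.66 ± 0.09 (SE) in shNTC cells, the value in shISG20 cells was 0.08 ± 0.09, and the response difference was -1.59 ± 0.13 (adjusted p = 0.000425). HMOX1 breaks down heme and is a target of both HIF and NRF2. Knockdown cells were above the controls at 20% O2 and below them at 1% O2.

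Of the 31 tested HIF targets outside glycolysis, 7 were called lower and 2 higher in shISG20 cells, and all 7 were blunted rises. Those calls were 29% of the list, against 6.93% of all rows. The list's median response was 1.97 in shNTC and 1.71 in shISG20 cells, with a median response difference of -0.23 against -0.09 over all rows. NDRG1, a hypoxia-induced differentiation gene, went from 22.3, 18.9 and 21.3 to 78.4, 94.5 and 88.5 TPM in shNTC cells, and from 26.4, 29.8 and 27.2 to 53.6, 56.8 and 52.8 TPM in shISG20 cells. The knockdown libraries started higher and ended lower, with no overlap between subclones at either oxygen level. NDRG1 rose by 2.01 in controls and by 0.95 in knockdown cells, a response difference of -1.07 ± 0.12 (adjusted p = 0.00128). ERO1A, the oxidase that drives disulfide bond formation in the ER, went from 32.5, 29.2 and 31.3 to 328, 334 and 336 TPM in shNTC cells, and from 35.3, 34.7 and 35.9 to 244, 259.7 and 236 TPM in shISG20 cells. It rose in both, by 3.38 ± 0.05 and 2.77 ± 0.05, with a response difference of -0.61 ± 0.08 (adjusted p = 0.00173). Knockdown cells were 0.43 lower at 1% O2 (adjusted p = 0.000687) and 0.18 higher at 20% O2, where the subclones did not overlap but the difference had an adjusted p of 0.0508. DDIT4 (REDD1), an inhibitor of mTORC1, had a response difference of -0.71 (adjusted p = 0.00375), CA12, a membrane carbonic anhydrase, one of -0.84 (adjusted p = 0.0303), and ADM, the vasodilator peptide adrenomedullin, one of -1.41 (adjusted p = 0.0266). The calls of CA12 and ADM held in 15 and 16 of the alternatives. NOS2, inducible nitric oxide synthase, had -1.08 (adjusted p = 0.0177), with recovered reads of 1 and 2 at 20% O2, and its call was lost with a pseudocount of 0.1 and with voom.

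The 2 called HIF targets that went the other way hydroxylate procollagen. P4HA1, a prolyl 4-hydroxylase subunit, went from 75.8, 70.9 and 64.1 to 216, 207 and 193 TPM in shNTC cells, and from 52.9, 52.99 and 57.9 to 285, 271 and 308 TPM in shISG20 cells. The knockdown libraries lay below the controls at 20% O2 and above them at 1% O2. Its rise was 1.54 in controls and 2.38 in knockdown cells, a response difference of 0.84 ± 0.11 (adjusted p = 0.00185). PLOD2, a lysyl hydroxylase, had a response difference of 0.53 (adjusted p = 0.0480), which was called in 8 of the 24 alternatives. P4HA2 and PLOD1, of the same families, were not called. P4HA2 went from 3.26, 2.79 and 2.89 to 49.1, 43.9 and 46.1 TPM in shNTC cells. In shISG20 cells it went from 2.27, 4.28 and 4.90 to 42.4, 44.4 and 44.2 TPM. PLOD1 went from 6.26, 7.76 and 7.70 to 14.3, 14.8 and 14.9 TPM in shNTC cells. In shISG20 cells it went from 4.78, 7.29 and 5.37 to 8.80, 8.93 and 10.75 TPM.

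Glycolysis was split as well. Of 20 tested genes, 3 were called higher and 5 lower, and the list's median response was 1.93 in shNTC and 2.00 in shISG20 cells. Those calls were 40% of the list, against 6.93% of all rows. Called higher were ALDOC (aldolase C), GAPDH and ENO1 (enolase), and lower were HK2 (hexokinase), PGAM1 (phosphoglycerate mutase), PKM (pyruvate kinase) and the lactate transporters SLC16A3 and SLC16A1. ALDOC went from 51.8, 46.1 and 49.6 to 354, 366 and 354 TPM in shNTC cells, and from 29.5, 27.9 and 32.8 to 372, 353 and 369 TPM in shISG20 cells, so the subclones met at 1% O2 after starting apart, and its response difference was 0.72 ± 0.09 (adjusted p = 0.00185). The difference was -0.76 for SLC16A3 (adjusted p = 0.0198), -0.60 for HK2 (adjusted p = 0.0235) and -0.52 for PGAM1 (adjusted p = 0.00989). Those of ENO1 and PKM were small, 0.19 and -0.18, and were called in 10 and 9 of the alternatives. GAPDH shares reads with many pseudogene copies, and its value of 0.25 (adjusted p = 0.00762) is uncertain and ranged from 0.22 to 0.58 over the alternatives.

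NRF2 targets and genes of glutathione and pentose phosphate metabolism had 6 of 26 tested members lower and 2 higher, with a median response difference of -0.38. The rises of HMOX1 and of GCLM, the modifier subunit of the enzyme that starts glutathione synthesis, were blunted. SRXN1, sulfiredoxin, which repairs oxidized peroxiredoxins, and FTL, the ferritin light chain, were reversed on TPM as deposited. FTL went from 5299, 5337 and 5631 to 6113, 6044 and 6693 TPM in shNTC cells. In shISG20 cells FTL went from 7469, 7291 and 7411.5 to 6943, 6780 and 6784 TPM. With median-of-ratios size factors 11 of the 70 reversed rows kept that pattern. FTL is not among the 13 named reversed genes whose pattern was followed there. TXNRD1, a thioredoxin reductase, and SQSTM1, the autophagy receptor p62, were enlarged falls. GCLM went from 55.5, 49.2 and 50.1 to 92.8, 105 and 98.01 TPM in shNTC cells, and from 35.0, 31.5 and 32.6 to 37.3, 37.7 and 38.9 TPM in shISG20 cells, a response difference of -0.72 ± 0.10 (adjusted p = 0.00301). SRXN1 went from 4.11, 7.23 and 5.60 to 16.2, 15.8 and 9.87 TPM in shNTC cells, and from 7.62, 5.56 and 5.50 to 3.28, 4.34 and 3.91 TPM in shISG20 cells, with a response difference of -1.74 ± 0.32 (adjusted p = 0.0103). It was called in all 24 alternatives, but in 17 of them as blunted, and its fall in shISG20 cells had an adjusted p of 0.0482. The 2 higher members were GSTM1, a glutathione transferase, at 0.87 (adjusted p = 0.0458) and called in 11 of the alternatives, and TKT, transketolase, at 0.51 (adjusted p = 0.00823).

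Genes of the unfolded protein response and ER folding included 7 called lower and 1 called higher of 26 tested, with a median response difference of -0.19. SDF2L1, an ER chaperone cofactor induced by ER stress, went from 14.4, 8.31 and 7.74 to 96.3, 99.5 and 115 TPM in shNTC cells, and from 35.7, 37.5 and 40.1 to 127, 110.4 and 130.0 TPM in shISG20 cells. The subclones were apart at 20% O2 and overlapped at 1% O2, and the response difference was -1.61 ± 0.26 (adjusted p = 0.00551). DNAJB9, an ER J-protein that restrains the sensor IRE1, went from 22.9, 24.3 and 24.7 to 32.4, 28.1 and 33.0 TPM in shNTC cells, and from 52.9, 47.2 and 43.2 to 31.8, 24.5 and 26.7 TPM in shISG20 cells. It rose by 0.36 in controls and fell in knockdown cells, where the value was -0.77, a response difference of -1.13 ± 0.15 (adjusted p = 0.00294). Blunted rises were also seen for MANF, an ER stress-induced secreted factor (-0.47, adjusted p = 0.0123), SEL1L, part of the ER degradation machinery (-0.60, adjusted p = 0.0192), and HYOU1, an ER chaperone (-0.35, adjusted p = 0.0425). HSPA5, the main ER chaperone BiP, was the member called higher. It went from 3729, 3616 and 3794 to 6557, 6493 and 7769 TPM in shNTC cells, and from 818, 800.3 and 778 to 1990.3, 1900.3 and 1995 TPM in shISG20 cells, a response difference of 0.40 ± 0.08 (adjusted p = 0.0187). Its level was far lower in the knockdown libraries at both oxygen levels, and its rise was the larger one. The call of HYOU1 held in 12 of the alternatives, and that of MANF was lost with median-of-ratios size factors. With those size factors 3 members of the list were called lower and 1 higher, and with voom 10 and 1.

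The promoters of 6 of these genes are shown, because members of 1 response moved unequally, from RefSeq on GRCm38.p6, each 300 bases from 250 before to 50 after the gene's start and written 5' to 3' on the gene's strand. Capitals mark matches on either strand to CCACG, the final part of the ER stress element, in the first 3, to ACGTG or GCGTG, the core of the HIF site, in Ero1a, and to TGACNNNGC, the core of the antioxidant response element bound by NRF2, in the last 2.
Hspa5 (chr2:34771840-34772139, plus strand): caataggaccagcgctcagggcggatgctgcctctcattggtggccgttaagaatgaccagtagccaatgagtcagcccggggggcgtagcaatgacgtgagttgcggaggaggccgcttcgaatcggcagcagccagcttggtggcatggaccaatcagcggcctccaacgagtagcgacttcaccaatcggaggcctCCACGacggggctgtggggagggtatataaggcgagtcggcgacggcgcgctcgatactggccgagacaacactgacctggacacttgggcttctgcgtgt
Sdf2l1 (chr16:17132334-17132633, minus strand): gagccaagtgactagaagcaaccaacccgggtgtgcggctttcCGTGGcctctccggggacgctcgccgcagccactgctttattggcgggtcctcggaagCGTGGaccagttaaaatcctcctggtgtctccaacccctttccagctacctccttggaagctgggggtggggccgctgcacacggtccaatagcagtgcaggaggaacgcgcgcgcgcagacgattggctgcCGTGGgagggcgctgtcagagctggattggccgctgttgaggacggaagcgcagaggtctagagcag
Dnajb9 (chr12:44210019-44210318, minus strand): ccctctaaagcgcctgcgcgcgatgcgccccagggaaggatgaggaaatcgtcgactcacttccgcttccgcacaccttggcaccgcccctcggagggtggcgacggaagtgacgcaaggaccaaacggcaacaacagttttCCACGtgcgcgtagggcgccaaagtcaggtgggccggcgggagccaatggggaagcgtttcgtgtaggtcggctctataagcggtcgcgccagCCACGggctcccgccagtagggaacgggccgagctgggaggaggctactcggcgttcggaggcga
Ero1a (chr14:45318523-45318822, minus strand): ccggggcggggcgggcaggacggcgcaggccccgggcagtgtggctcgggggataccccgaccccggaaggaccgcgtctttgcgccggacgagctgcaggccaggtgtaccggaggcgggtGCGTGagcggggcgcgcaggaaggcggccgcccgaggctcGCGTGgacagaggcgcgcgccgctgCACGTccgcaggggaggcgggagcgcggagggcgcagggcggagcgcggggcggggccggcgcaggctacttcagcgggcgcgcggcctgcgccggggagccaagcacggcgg
Gclm (chr3:122245307-122245606, plus strand): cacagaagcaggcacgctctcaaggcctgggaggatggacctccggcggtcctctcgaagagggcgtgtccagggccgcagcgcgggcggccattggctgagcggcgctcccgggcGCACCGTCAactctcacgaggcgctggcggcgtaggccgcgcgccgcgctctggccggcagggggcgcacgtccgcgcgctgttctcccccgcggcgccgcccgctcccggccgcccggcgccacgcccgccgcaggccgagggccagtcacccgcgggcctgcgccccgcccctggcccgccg
Srxn1 (chr2:152105274-152105573, plus strand): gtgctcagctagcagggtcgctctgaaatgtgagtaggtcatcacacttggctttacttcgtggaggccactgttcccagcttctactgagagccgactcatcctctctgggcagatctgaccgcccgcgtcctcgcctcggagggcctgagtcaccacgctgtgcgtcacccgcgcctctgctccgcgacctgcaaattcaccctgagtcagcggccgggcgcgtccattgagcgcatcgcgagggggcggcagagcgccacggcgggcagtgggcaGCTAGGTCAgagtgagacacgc
Hspa5 held 1 match to CCACG, Sdf2l1 3 and Dnajb9 2, and the match in Hspa5 was part of the full element, CCAAT and CCACG with 9 bases between them, which was found in 0.119% of 32851 promoters of the same length. CCACG alone was in 32.8% of them, ACGTG or GCGTG in 43.8% and TGACNNNGC in 12.4%, so a match to one of these short motifs is common. Ero1a held 3 matches to the HIF core, and Gclm and Srxn1 1 each to the antioxidant core. The matches describe the letters of these windows and are not measured binding sites.

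Outside the lists, blunted rises included CRYAB, the small heat shock protein alpha-B crystallin, with a response difference of -0.85 ± 0.10 (adjusted p = 0.00117), ATG9B, an autophagy lipid scramblase, with -1.12 ± 0.14 (adjusted p = 0.00171), and CPNE2, a calcium-dependent membrane-binding protein, with -1.15 ± 0.13 (adjusted p = 0.00127). IGF2BP2, an RNA-binding protein that stabilizes messenger RNAs, went from 39.8, 43.5 and 40.8 to 66.0, 67.1 and 66.8 TPM in shNTC cells, and from 78.7, 79.4 and 82.1 to 75.5, 79.9 and 76.1 TPM in shISG20 cells, a rise in controls, while the value in knockdown cells was -0.05 ± 0.05 (adjusted p = 0.414). In the list of circadian clock genes, the repressors NR1D1 (REV-ERB alpha) and BHLHE41 (DEC2) were blunted rises. Their response differences were -1.12 (adjusted p = 0.00260) and -1.03 (adjusted p = 0.0132). RORA, an activator, was an enlarged rise, with 0.68 (adjusted p = 0.0425). The call of RORA held in 11 of the 24 alternatives, with 0.40 at a pseudocount of 5. NR1D1, BHLHE41 and RORA were the 3 called of 15 clock genes tested, and voom called 5. GSTA2, a glutathione transferase with close paralogs, had -1.51 (adjusted p = 0.0430) and lost its call in 18 of the 24 alternatives.

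Matrix genes had the highest share of calls among lists with 10 or more tested members. The lists were chosen with earlier results of these data known, so the ranking is a description alone. Of 22 tested genes of fibrillar collagens and interstitial matrix, 12 were called, all higher in shISG20 cells: 6 blunted falls, 3 enlarged rises and 3 reversals from fall to rise. The median response was -0.53 in shNTC and 0.06 in shISG20 cells, and the median response difference was 0.77. Leaving out 1 library at a time gave 9 to 13 calls, all higher. At 1% O2, shNTC replicate 3 stood apart from the other pair of its group, with a chi-square per row of 2.43 and 2.32 against 1.56 between the other two, and it had the lowest level of its group in 9 of the 12 called genes. Without it 11 were called, and the response difference of COL1A1 was 1.47. COL1A1, a chain of type I collagen, went from 337, 326 and 355 to 292, 307 and 233 TPM in shNTC cells, and from 130.0, 106 and 146 to 296, 337 and 299 TPM in shISG20 cells. Knockdown cells started below the controls and reached their range at 1% O2, for a response difference of 1.59 ± 0.17 (adjusted p = 0.00105). COL1A2, the partner chain, went from 872, 812 and 863 to 608, 628 and 490.0 TPM in shNTC cells, and from 674, 616 and 659.9 to 748, 826 and 718 TPM in shISG20 cells, a response difference of 0.80 ± 0.12 (adjusted p = 0.00471).

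COL3A1, the chain of type III collagen, went from 10.2, 11.2 and 12.8 to 0.672, 0.938 and 0.758 TPM in shNTC cells, and from 2.51, 2.22 and 2.17 to 0.789, 1.08 and 1.25 TPM in shISG20 cells. The subclones were apart at 20% O2 and overlapped at 1% O2, and the response difference was 2.09 ± 0.22 (adjusted p = 0.00100). SPARC, a collagen-binding matrix protein, and COL16A1, a fibril-associated collagen, did not pass the test in controls (adjusted p = 0.0606 and 0.838) and rose in knockdown cells, with response differences of 0.86 ± 0.09 (adjusted p = 0.00100) and 1.24 ± 0.13 (adjusted p = 0.00100). PCOLCE, an enhancer of procollagen processing, was reversed, with responses of -0.47 in controls and 0.66 in knockdown cells (adjusted p of the difference = 0.00762). SERPINH1, the collagen chaperone HSP47, went from 388, 382 and 403 to 256, 253 and 253 TPM in shNTC cells, and from 370.0, 375 and 371 to 298, 305 and 309.5 TPM in shISG20 cells, and its smaller fall gave a response difference of 0.33 ± 0.05 (adjusted p = 0.00335). FN1, fibronectin, had 0.67 ± 0.11 (adjusted p = 0.00673).

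Of 15 tested basement membrane and integrin genes 6 were called, all higher: LAMB1 (laminin beta 1), HSPG2 (perlecan), ITGB5, ITGA3, ITGB1 and AGRN (agrin), the last in 12 of the alternatives. LAMB1 went from 176, 188 and 176 to 106, 96.4 and 89.1 TPM in shNTC cells, and from 134, 137 and 146 to 139, 156 and 156 TPM in shISG20 cells. The knockdown libraries were below the controls at 20% O2 and above them at 1% O2, and the response difference was 0.99 ± 0.10 (adjusted p = 0.00100). LAMB1 was called in all 24 alternatives, as a blunted fall in 19 of them. ITGA3, a laminin-binding integrin chain, had 0.93 ± 0.16 (adjusted p = 0.00789). Of 5 tested mesenchymal markers 4 were called higher, VIM, FN1, TWIST1 and S100A4. TWIST1, a transcription factor of mesenchymal cells, went from 99.7, 128 and 117 to 116, 112 and 99.7 TPM in shNTC cells, and from 68.7, 68.0 and 70.3 to 142, 129 and 134 TPM in shISG20 cells, so that the order of the subclones turned over between the oxygen levels. Its response difference was 1.02 ± 0.12 (adjusted p = 0.00171). None of the 4 tested epithelial markers was called in limma's test, 2 were higher at an unadjusted p under 0.05, and voom called none. Of the fibroblast markers PDGFRA and COL3A1 could be tested and DCN had 2 reads in all, so the part of other cells in the collagen values was not tested beyond these markers.

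Several receptors and secreted factors also had falls that were blunted in shISG20 cells. AXL, a receptor tyrosine kinase, went from 344, 375 and 387 to 167, 174 and 145 TPM in shNTC cells, and from 222, 223 and 239 to 205, 224 and 210.3 TPM in shISG20 cells. The controls passed from above the knockdown range to below it, and the response difference was 1.09 ± 0.10 (adjusted p = 0.000722). LRP1, an endocytic receptor, went from 213, 199 and 211 to 117, 122 and 104 TPM in shNTC cells, and from 99.2, 96.6 and 108 to 99.97, 124 and 107 TPM in shISG20 cells, a fall in controls, while the value in knockdown cells was 0.12 ± 0.09 (adjusted p = 0.274). AXL and LRP1 were called in all 24 alternatives, as blunted falls in 23 and 20 of them. CPE, carboxypeptidase E, had a response difference of 0.91 ± 0.11 (adjusted p = 0.00175). In TGF-beta and activin signalling 4 of 30 tested genes were higher and 1 lower, or 7 and 2 with voom. The main calls were 16.7% of that list, against 6.93% of all rows. FST, follistatin, which binds activin, went from 109, 116 and 106 to 55.6, 44.3 and 35.1 TPM in shNTC cells, and from 102, 111 and 106 to 85.2, 105 and 97.2 TPM in shISG20 cells, a response difference of 1.14 ± 0.19 (adjusted p = 0.00716), or 0.98 without shNTC 1% O2 replicate 3. TGFB1 itself had 1.08 ± 0.20 (adjusted p = 0.0123) and LTBP1, which holds latent TGF-beta in the matrix, 0.60 ± 0.10 (adjusted p = 0.00785).

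Among angiogenic and vasoactive factors 6 of 25 were higher and 2 lower, so 32% were called, against 6.93% of all rows. ANGPT1, the ligand of the receptor TIE2, fell to near 0 in both subclones, from 25.4, 24.6 and 23.4 TPM in shNTC cells and 5.19, 3.74 and 4.87 TPM in shISG20 cells at 20% O2, with 23 and 4 reads left at 1% O2. GDPD2, a glycerophosphodiester phosphodiesterase, went from 23.1, 30.5 and 28.0 TPM to 7 reads in shNTC cells and from 3.21, 2.39 and 3.80 TPM to 0 reads in shISG20 cells. Both were called as blunted falls, but log2(TPM + 1) compresses values under 1 TPM, and both calls were lost with a pseudocount of 0.1 and with voom. NRP2, a neuropilin that binds VEGF and semaphorins, was reversed, with responses of -0.26 and 0.45. DDAH2 had a response difference of 1.20 ± 0.22 (adjusted p = 0.0108).

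**Figure D3:**
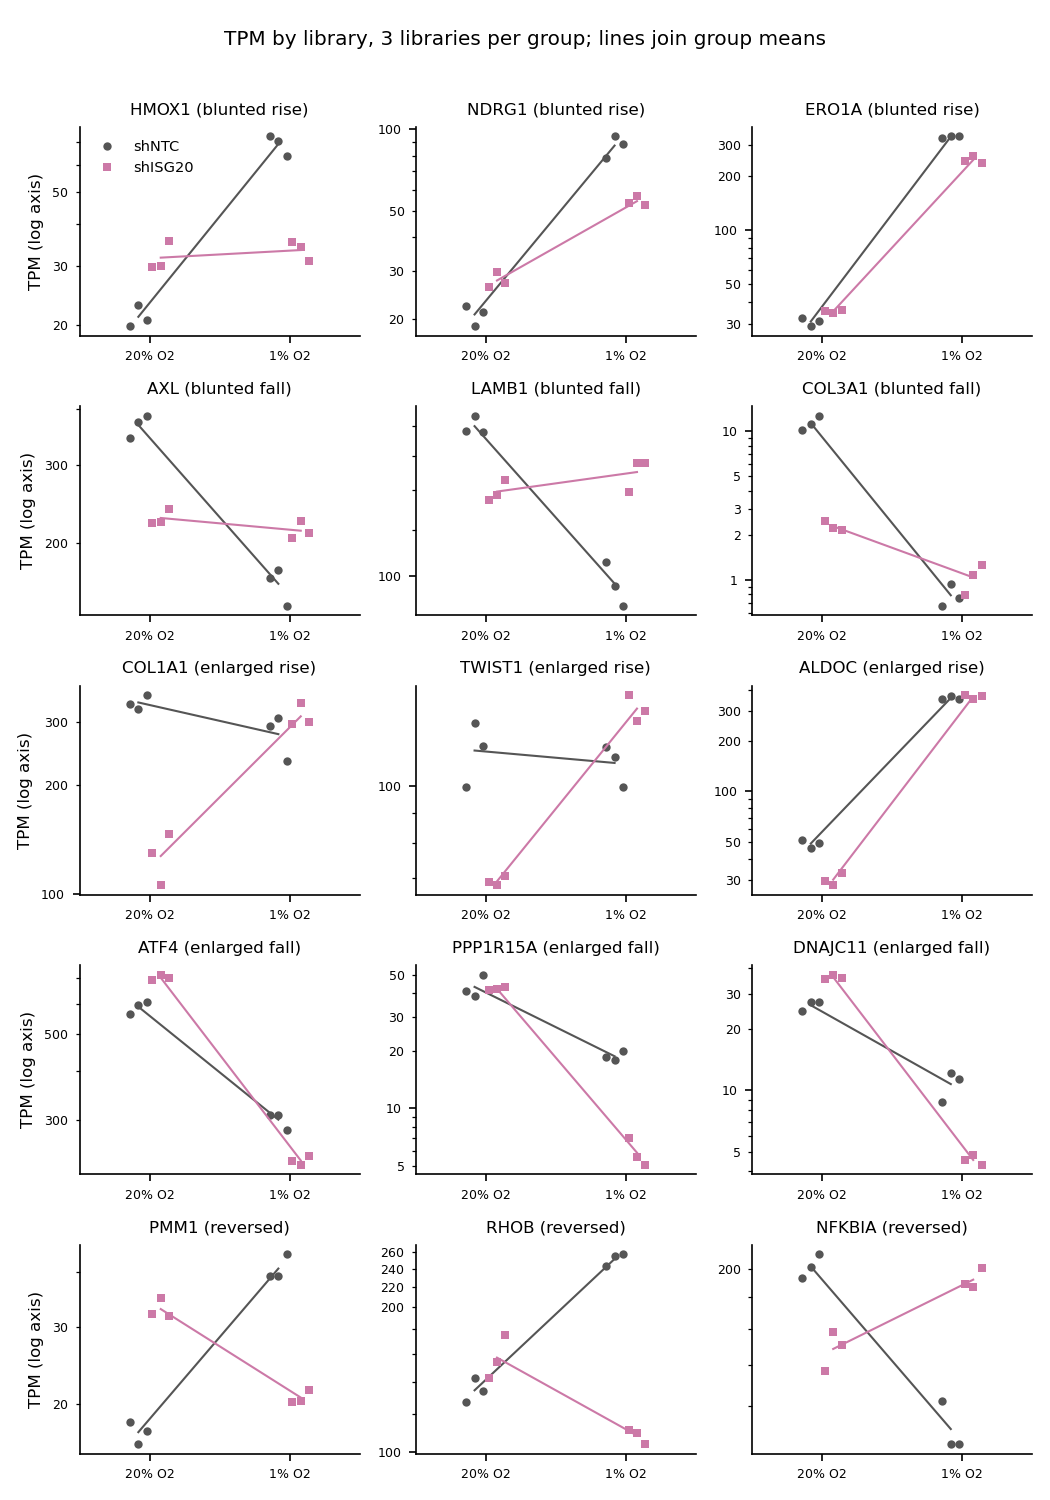
TPM of 15 genes in every library, on log axes, at 20% and 1% O2 in shNTC cells (grey circles) and shISG20 cells (pink squares), 3 libraries per group, with lines joining the group means. Rows of panels show blunted rises, blunted falls, enlarged rises, enlarged falls and reversals; in PMM1 and NFKBIA the lines of the subclones cross.

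Enlarged rises also held enzymes of cholesterol synthesis. Of 26 tested genes of cholesterol and fatty acid synthesis 3 were called, all higher, against 2.62% higher over all rows. Those 3 were 11.5% of the list, against 9.28% called in either direction among rows with a mouse gene name. Voom called 8, as did the fit on rows with a mouse match alone. Median-of-ratios size factors gave 7 calls and quantile normalization 5, again all higher. The median response was 1.01 in shNTC and 1.41 in shISG20 cells. HMGCS1, HMG-CoA synthase, went from 26.2, 22.3 and 20.6 to 72.2, 76.9 and 74.7 TPM in shNTC cells, and from 12.8, 13.03 and 15.8 to 91.2, 113 and 83.8 TPM in shISG20 cells, a response difference of 1.04 ± 0.18 (adjusted p = 0.00737). FDFT1, squalene synthase, went from 8.54, 9.38 and 9.61 to 13.1, 12.9 and 11.9 TPM in shNTC cells, and from 5.93, 6.62 and 6.83 to 18.8, 18.6 and 17.8 TPM in shISG20 cells, with 0.95 ± 0.13 (adjusted p = 0.00279).

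Of 29 genes listed under the actin cytoskeleton, VIM among them, 5 were called, all higher (17.2%, against 6.93% of all rows). Median-of-ratios size factors gave 12 higher, rows with a mouse match alone 10 higher and 1 lower, and voom 12 higher and 2 lower. The differences were small. TMSB10, a thymosin that binds actin monomers, had 0.48, and MYL6, a myosin light chain, 0.36. VIM, the mesenchymal filament that is also counted among the mesenchymal markers, had 0.35. VIM lost its call with quantile normalization, where its value was 0.18 (adjusted p = 0.185), and both VIM and MYL6 lost theirs without a variance trend. TMSB10 and the tubulin gene TUBB2A (0.62, adjusted p = 0.00161) have close copies, and their values are uncertain. GNAI2, an inhibitory G protein subunit, had 0.52 ± 0.06 (adjusted p = 0.00174). ZFP36L1, an RNA-binding protein that hastens the decay of AU-rich messengers, went from 190.4, 192 and 189.7 to 199, 183 and 179 TPM in shNTC cells, and from 143, 139 and 151 to 217, 239 and 223 TPM in shISG20 cells. The control groups overlapped and the knockdown groups did not, with a response difference of 0.68 ± 0.08 (adjusted p = 0.00116). RNF19B, an E3 ubiquitin ligase, had 0.76 ± 0.08 (adjusted p = 0.00104). Among called genes with a mouse match and at least 5 TPM and 30 reads in their highest group, the 3 largest enlarged rises on log2(TPM + 1) were those of ADAMTSL4, a matrix protein that binds fibrillin (1.78 ± 0.36, adjusted p = 0.0155), COL1A1 and CTHRC1, a secreted collagen triple helix protein (1.40 ± 0.29, adjusted p = 0.0178). ADAMTSL4 had 17 reads in shISG20 cells at 20% O2, and its size depended on the pseudocount, with 2.83 at 0.1 and 0.84 at 5.

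Enlarged falls, the class with the most rows, included the integrated stress response. Of 34 tested genes of that response 13 were called, all lower in shISG20 cells and all enlarged falls, with a median response of -0.87 in shNTC and -1.17 in shISG20 cells. ATF4 went from 565, 595 and 607 to 309, 309 and 282 TPM in shNTC cells, and from 689, 713 and 699 to 235, 229 and 241 TPM in shISG20 cells. The knockdown cells were above the controls at 20% O2 and below them at 1% O2, without overlap, and the response difference was -0.60 ± 0.06 (adjusted p = 0.00100). PPP1R15A (GADD34), which brings a phosphatase to eIF2 alpha and ends the response, went from 41.0, 38.4 and 49.8 to 18.4, 17.8 and 19.8 TPM in shNTC cells, and from 41.5, 41.8 and 43.1 to 6.96, 5.56 and 5.07 TPM in shISG20 cells, a response difference of -1.51 ± 0.17 (adjusted p = 0.00109).

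The called members included 5 cytosolic aminoacyl-tRNA synthetases, WARS1, AARS1, NARS1, SARS1 and YARS1, with response differences from -0.99 to -0.26. WARS1, which charges tryptophan tRNA, went from 68.3, 65.4 and 68.0 to 35.0, 38.9 and 39.8 TPM in shNTC cells, and from 84.7, 90.6 and 89.5 to 23.7, 27.3 and 22.9 TPM in shISG20 cells. SLC7A5, a carrier of large neutral amino acids, had -0.62 (adjusted p = 0.00833), and the serine and folate enzymes PSPH, SHMT2 and ALDH1L2 had -0.64, -0.45 and -0.69. The stress-induced factors ATF3 and DDIT3 (CHOP) had -1.09 and -0.49, and DDIT3 was called in 9 of the 24 alternatives. With median-of-ratios size factors 12 members were lower and 1 higher, and without the library labelled 484 hours 11 were lower.

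Ribosome biogenesis and MYC targets had median responses of -1.44 in shNTC and -1.74 in shISG20 cells, and of 34 tested 9 were enlarged falls and 3 blunted falls. NOP56, a core protein of box C/D small nucleolar particles, went from 340.1, 381 and 365 to 41.9, 49.9 and 47.6 TPM in shNTC cells, and from 422, 449 and 422 to 27.1, 29.0 and 28.8 TPM in shISG20 cells, a response difference of -0.95 ± 0.10 (adjusted p = 0.00100). RRP12, DKC1, NOLC1 and NOP58, also nucleolar, had -0.94, -0.70, -0.72 and -0.59. MYC itself had -0.86 (adjusted p = 0.00704). The blunted falls were those of NPM1 (nucleophosmin) and the nucleotide enzymes CTPS1 and IMPDH2, with NPM1 called in 10 of the alternatives. RCC1, the chromatin exchange factor of Ran, had -0.92 ± 0.09 (adjusted p = 0.000887). Of 48 cytosolic ribosomal proteins 7 were called, all higher, with response differences from 0.11 to 0.40. Those calls were 14.6% of the list, against 6.93% of all rows and 9.28% of rows with a mouse gene name. The median response difference of the list was 0.07. The many pseudogene copies of these genes make their values uncertain, and 4 were higher and 1 lower with quantile normalization and 14 higher with voom.

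Of 33 tested genes of DNA replication and S phase 4 were called, all enlarged falls, with a median response difference of -0.43. They were 12.1% of the list, against 6.93% of all rows and 9.28% of rows with a mouse gene name. Voom called 7 lower and 1 higher. PCNA, the sliding clamp, went from 117, 107 and 98.8 to 106, 93.1 and 103 TPM in shNTC cells, and from 210.5, 200.5 and 189.8 to 98.8, 99.0 and 90.5 TPM in shISG20 cells, with a response difference of -0.95 ± 0.11 (adjusted p = 0.00109). The fall passed the test in knockdown cells (adjusted p = 4.88e-07) and not in controls (adjusted p = 0.313). FEN1, the flap endonuclease, had -1.21 ± 0.21 (adjusted p = 0.00782), and the helicase subunits MCM5 and MCM3 had -0.82 ± 0.13 (adjusted p = 0.00539) and -0.93 (adjusted p = 0.00965). In mitosis 2 of 22 genes were called, both as blunted falls: PLK1, at 0.59 (adjusted p = 0.0362), and ECT2, at 0.62 (adjusted p = 0.0469), called in 12 and 11 of the alternatives. That was 9.09% of the list, near the shares of 6.93% of all rows and 9.28% of rows with a mouse gene name. Leaving out 1 library at a time gave 0 or 1 call, and voom gave 4. Among p53 targets 4 of 18 were lower and 1 higher (27.8% called), and PLK2 had -0.50 (adjusted p = 0.00180). Leaving out 1 library at a time gave 1 to 4 lower and at most 1 higher, and voom gave 7 and 1.

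Nuclear genes of oxidative phosphorylation and the citric acid cycle had 7 of 34 members lower and 2 higher. With 1 library left out 2 to 8 were lower and 2 higher. MDH2, mitochondrial malate dehydrogenase, went from 152, 161 and 164 to 162, 166 and 158 TPM in shNTC cells, and from 188, 192 and 196 to 132, 139 and 132 TPM in shISG20 cells, a response difference of -0.54 ± 0.06 (adjusted p = 0.00131). SDHB, an iron-sulfur subunit of complex II, had -0.56 ± 0.10 (adjusted p = 0.00823). GOT2, the mitochondrial aspartate aminotransferase, went from 155, 158 and 158 to 113, 117 and 120.5 TPM in shNTC cells, and from 231, 226 and 232 to 107, 109.7 and 107 TPM in shISG20 cells, a response difference of -0.66 ± 0.06 (adjusted p = 0.000425). DNAJC11, a J-protein of the mitochondrial membranes, went from 24.6, 27.2 and 27.1 to 8.74, 12.2 and 11.3 TPM in shNTC cells, and from 35.5, 37.1 and 35.8 to 4.54, 4.79 and 4.30 TPM in shISG20 cells. Its groups did not overlap at either oxygen level, with knockdown cells higher at 20% O2 and lower at 1% O2, and the response difference was -1.52 ± 0.16 (adjusted p = 0.00100). Other enlarged falls were those of EIF3D, a translation initiation factor subunit (-0.42, adjusted p = 0.00105), ATP6V0B, a proton pump subunit (-0.82, adjusted p = 0.00100), CDC34, a ubiquitin-conjugating enzyme (-0.52, adjusted p = 0.00100), GNPDA1, glucosamine-6-phosphate isomerase (-1.53, adjusted p = 0.00341), and DGAT2, which makes triglycerides (-1.56, adjusted p = 0.00739). DGAT2 had 19 and 9 reads left at 1% O2, its value was -0.73 at a pseudocount of 5, and its call was lost at a pseudocount of 0.1 (-2.70, adjusted p = 0.0652). GNPDA1 had -0.99 at a pseudocount of 5.

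The smallest p of all rows belonged to a reversed gene. PMM1, a phosphomannomutase, went from 18.2, 16.2 and 17.4 to 39.1, 39.0 and 43.8 TPM in shNTC cells, and from 32.0, 34.9 and 31.8 to 20.3, 20.4 and 21.5 TPM in shISG20 cells. It rose by 1.19 ± 0.08 in controls and had a response of -0.64 ± 0.08 in knockdown cells, a response difference of -1.83 ± 0.11 (adjusted p = 7.69e-05). Its 4 groups did not overlap, and PMM1 was reversed in all 24 alternatives. NFKBIA, the NF-kappaB inhibitor, was reversed the other way. It went from 193, 201 and 211 to 122, 104 and 104 TPM in shNTC cells, and from 137, 158 and 151 to 189, 187 and 201 TPM in shISG20 cells, a response difference of 1.24 ± 0.11 (adjusted p = 0.000425), also in all 24.

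RHOB, a small GTPase, went from 127, 142 and 134 to 243, 255 and 257 TPM in shNTC cells, and from 142, 154 and 175 to 111, 109.8 and 104 TPM in shISG20 cells. The subclones nearly met at 20% O2 and stood apart at 1% O2, for a response difference of -1.43 ± 0.10 (adjusted p = 0.000252). LGALS3, galectin-3, went from 67.5, 67.1 and 71.2 to 101, 109.8 and 105 TPM in shNTC cells, and from 115, 118 and 120.4 to 84.3, 75.6 and 85.7 TPM in shISG20 cells, with -1.13 ± 0.08 (adjusted p = 0.000252). Both were called in every alternative, but with median-of-ratios size factors their falls in knockdown cells did not pass the test and they counted as blunted. Of the 13 named reversed genes, all 13 were still called with those size factors and 3 were still reversed: PMM1, NFKBIA and DNAJB9.

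Immediate early genes and growth factor targets held blunted, enlarged and reversed responses, with 4 of 33 higher and 7 lower. Those calls were 33.3% of the list, against 6.93% of all rows. JUN, a subunit of AP-1, went from 187, 215 and 213 to 283, 291 and 267 TPM in shNTC cells, and from 251, 268 and 274 to 223, 218 and 215 TPM in shISG20 cells, a reversal with a response difference of -0.72 ± 0.08 (adjusted p = 0.00127). DUSP1, a phosphatase of MAP kinases, had -0.99 ± 0.09 (adjusted p = 0.000710) and was also reversed. DUSP1 kept that pattern in 16 of the 24 alternatives and JUN in 22. JUND was an enlarged fall (-0.70, adjusted p = 0.00294), and JUNB (0.47, adjusted p = 0.00627) and NAB2, a corepressor of EGR factors (1.52, adjusted p = 0.00471), were blunted falls. Among 26 chaperones 6 were lower and 1 higher (26.9% called), and 1 to 7 were lower with 1 library left out. HSPA9, the mitochondrial HSP70, was reversed, with responses of 0.20 and -0.20 and a response difference of -0.40 ± 0.04 (adjusted p = 0.00109). It took another pattern with median-of-ratios size factors and with voom. HSPA8, which has close copies, was the higher one (0.42, adjusted p = 0.0149).

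None of 15 tested interferon-stimulated genes was called in limma's test, against 6.93% of all rows and 9.28% of rows with a mouse gene name. Of these 4 were lower at an unadjusted p under 0.05, and voom called 3 lower. The median response difference was -0.24. Among antigen presentation genes 1 of 14 was called, PSME1 of the proteasome activator (0.41, adjusted p = 0.0375), and that call held in 13 of the 24 alternatives. That was 7.14% of the list, near the 6.93% of all rows. Median-of-ratios size factors and voom each called 3 of the 14, all higher. Of 10 chemokines, cytokines and immune ligands, CSF1 was higher (0.48, adjusted p = 0.0342), with a call that held in 15 of the alternatives, and LGALS3 was lower. RNA decay factors and 3' to 5' exonucleases had 5 of 40 called (12.5%), all lower, against 4.31% lower over all rows. Among rows with a mouse gene name, 9.28% were called in either direction. They were ISG20, AEN, ERI3, XRN2 and CNOT6, and the last 4 were called in 10 or 11 of the alternatives. With 1 library left out 0 to 6 were lower and at most 1 higher, with median-of-ratios size factors 3 were lower and 1 higher, and with voom 7 and 1.

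**Figure D4:**
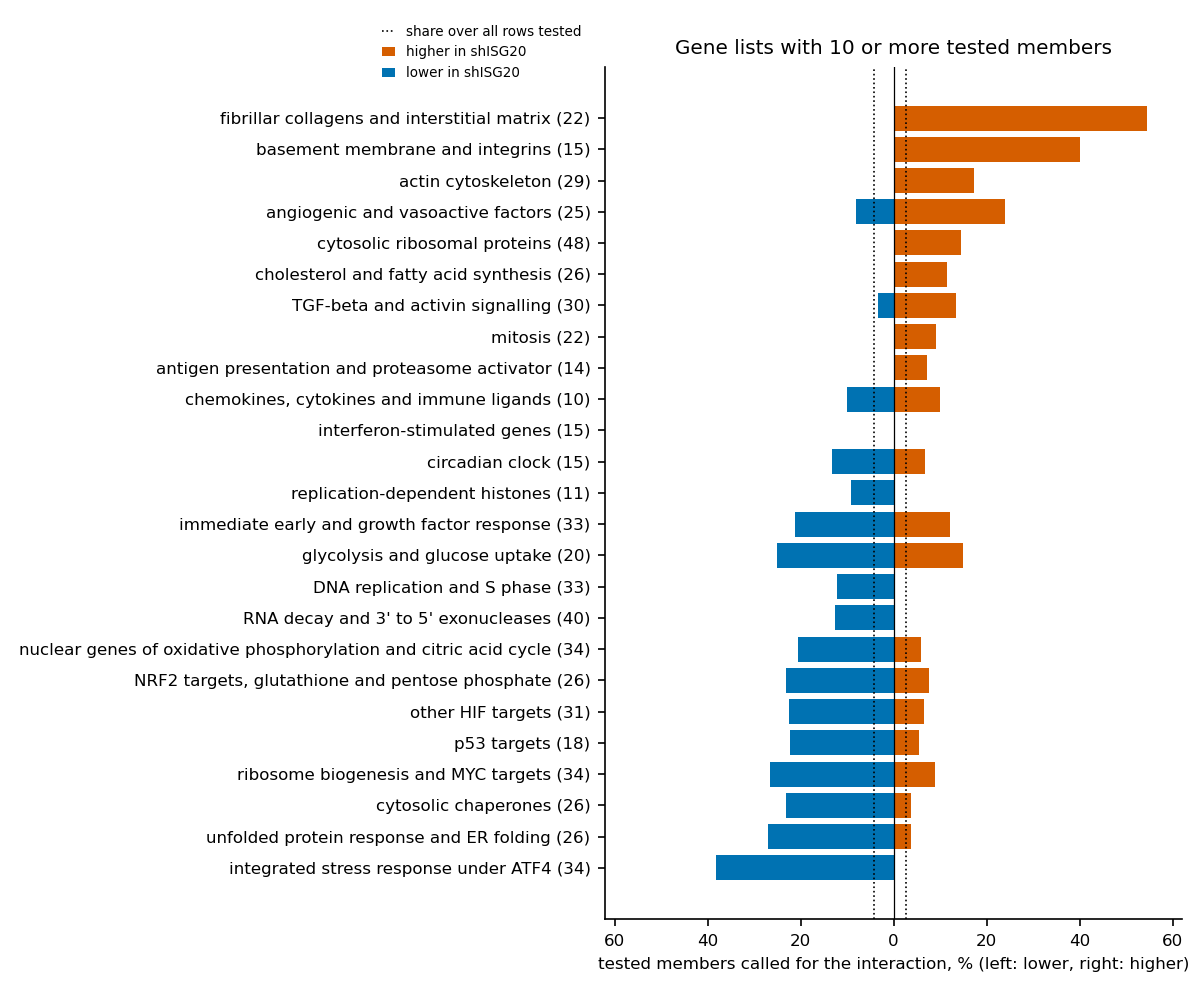
Share of tested members called for the response difference in each gene list with 10 or more tested members (number in brackets), in percent, to the right for higher and to the left for lower in shISG20 cells. Dotted lines give the shares over all 14389 rows, 2.62% higher and 4.31% lower. Of rows with a mouse gene name 9.28% were called in either direction. Interstitial matrix has 12 of 22 on the right and the integrated stress response 13 of 34 on the left.

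With 4 other scalings or choices of rows, with voom, and without the library labelled 484 hours, the median response difference changed sign in 2 lists, chemokines, cytokines and immune ligands, and replication-dependent histones. The plot of patterns by setting shows where the class sizes moved.

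**Figure D5:**
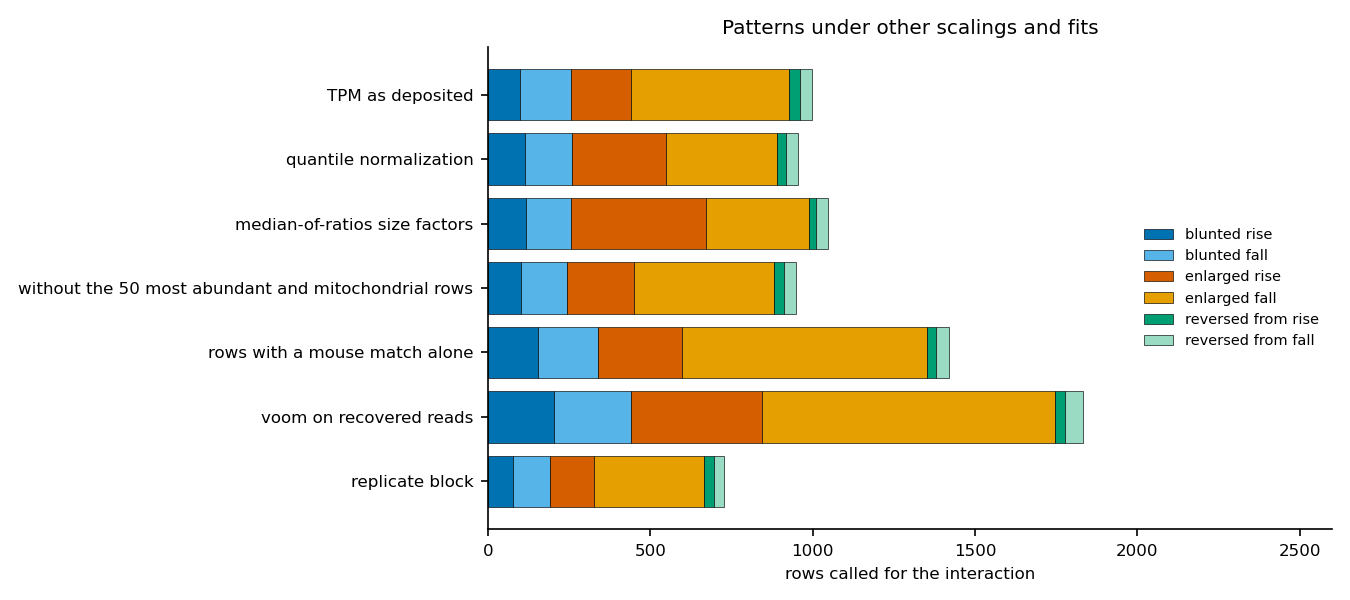
Number of rows called for the response difference (horizontal axis), divided by class, on TPM as deposited and under 6 other scalings, row choices or fits. The total is 997 as deposited, 1046 with median-of-ratios size factors and 1834 with voom on recovered reads; enlarged rises (dark orange) number 184, 415 and 401, and enlarged falls (light orange) 487, 316 and 904.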

How the data were processed

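RNA of 12 EMT6 libraries was analysed as a table of TPM that the authors deposited. The submitters' processing notes name FastQC, STAR, featureCounts and GRCh38; versions, strand and the step to TPM are not given in the sources used here. Ratios between libraries gave whole reads for 100% of values (tolerance 0.01).

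A single model (limma 3.58.1, R 4.3.3; moderated, with a variance trend) was fitted to log2(TPM + 1) of 14389 rows, with a coefficient for each group and no covariates. Adjusted p-values are Benjamini-Hochberg values over all rows of a comparison. TPM fold changes of low genes are understated on this scale. Errors of log2 values are SE. Voom on recovered reads was an alternative. The fit was also run on simulated reads with planted response differences larger than most of those called here. No shift of scaling between the subclones was simulated. That run therefore cannot judge the smaller calls or the choice of scaling.

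Named genes matched a mouse gene, were called, and had at least 5 TPM and 30 reads in the highest group; per class, reversed rows as 1 class, the 8 smallest p and 3 largest differences were taken, with up to 3 called members per list (31 lists), and ISG20, HIF1A, EPAS1 and ARNT. That gave 100 genes, not all described. Other list members, ELOB and KMT2C were named after their values were seen. Members and lists were chosen with earlier results of these data known. Figures used Python 3.11.15, pandas 2.3.3, numpy 2.4.6 and matplotlib 3.10.9. Some members of the gene lists are counted but not reported by name here.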

Additional observations from a re-analysis of the deposited data

Results flagged for a closer look

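The comparison is itself a difference between subclones in the response to hypoxia, so every call is a difference between groups, tested by limma's interaction term, and there are 997 of them. The 13 named genes whose response had opposite signs, both called, are given here by their response difference. The values were negative, from a rise in shNTC to a fall in shISG20 cells, for PMM1 (-1.83), SRXN1 (-1.74), RHOB (-1.43), LGALS3 (-1.13), DNAJB9 (-1.13), DUSP1 (-0.99), JUN (-0.72) and HSPA9 (-0.40). They were positive, from a fall to a rise, for CIB2 (1.63), NFKBIA (1.24), DLG4 (1.09), NXN (0.90) and NRP2 (0.71). Groups of 3 libraries are too small for a gap test of single samples. In chi-square per row between libraries of a group, shNTC 1% O2 replicate 3 (2.43 and 2.32 against 1.56 for the other pair) and shISG20 1% O2 replicate 2 (2.00 and 2.01 against 1.39) lay farthest from theirs, and there were 855 calls without the first and 1043 without the second.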

How the results depend on the processing

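The 2 hypoxia counts and the reversed count were within 1.5 times of their main values under all 24 alternatives. The count of calls for the response difference was 1834 with voom, and 595 to 1043 with 1 library left out. Blunted calls numbered 442 with voom and 163 to 246 with 1 library left out. Enlarged calls numbered 1012 on rows with a mouse match alone, 1305 with voom and 383 to 732 with 1 library left out. The cause was not tested, and leaving out a library also leaves fewer samples. Of 2396 values of named genes under an alternative, 2237 gave the same call, 159 lost it and none changed direction; 18 of the losses came without a variance trend. Replicate numbers did not pair the libraries: deviations from group means correlated at -0.042 to 0.015 between libraries of the same number and -0.033 to 0.052 between different numbers. A fit with the replicate number as a block gave 726 calls, 690 of them among the 997, with 191 blunted, 474 enlarged and 61 reversed. Depth limits low genes: ISG20 had 7 reads in shISG20 cells at 20% O2, and 11 called rows passed the filter through 1 group alone.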

Other observations

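Rows without the name of a mouse gene, 5810 of those tested and many of them pseudogenes, held 201 calls for the response difference (3.46%), and rows with such a name held 796 of 8579 (9.28%). The median SD over the 3 libraries of a group, on log2(TPM + 1), was 0.275 to 0.30 in these rows and 0.119 to 0.143 in rows with a mouse gene name. No test of the difference between the shares was run, since rows that share reads are not independent.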
